A study of Mus musculus with 2 samples.

Results

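Chemokine ligands are small secreted proteins that direct the migration of cells through receptors of the G protein-coupled family. They are grouped by the spacing of their first cysteines into CC, CXC, XC and CX3C ligands, and many are induced through NF-κB, by inflammatory cytokines or by interferon. Chondrocytes of inflamed joints are known to release several of them, such as CCL2 and CCL5, and to carry receptors for some. A total of 34 chemokine ligand genes were measured in mouse primary chondrocytes before mechanical loading and 24 h after it. The genes were those with a symbol beginning Cxcl, Ccl or Xcl and a number, or Cx3cl1, with at least 1 array probe designed on a RefSeq transcript of the gene. They are 34 of the 44 genes with such a symbol in the RefSeq table used for naming and 34 of the 20660 genes named on the arrays. The other 10 had no matched probe and were not analysed here: Ccl21a, Ccl21b, Ccl21c, Ccl21d, Ccl27b, Ccl16-ps, Ccl19-ps1, Ccl19-ps2, Ccl19-ps3 and Cxcl11, the last of which the table lists as a transcribed pseudogene.

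The chondrocytes came from C57BL/6J mice of 6 days of age and were grown in silicon stretch chambers on fibronectin. After 48 h in the chambers they were stretched cyclically for 30 min, to 10% elongation at 0.5 Hz. One array held RNA of cells taken before the loading and 1 array held RNA of cells taken 24 h after it, both Cy3-labelled and on 1 slide, and the labels do not say how many animals or chambers gave each RNA. The comparison asks which transcripts differ a day after loading. Each time point has 1 array, so the differences could not be checked on replicates or tested, and loading and a further 24 h in culture cannot be told apart.

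Values are the spot intensities of the scanner software after background subtraction, in arbitrary units. Log2 ratios compare 24 h with before loading and are above 0 where the 24 h array was higher. Both arrays were first scaled to their 75th percentiles, which lay at 466.37 and 466.15. A probe is called detected where the software marked it as well above background on both arrays, and each gene is represented by its brightest probe. The error printed with a log2 ratio combines the software's errors of the spots on both arrays. It is meant to cover measurement within the arrays and does not cover the spread between cultures. For bright probes with 1 spot it was nearly the same, 0.204 for both Col2a1 and Sod2. A limit of 2 errors is therefore nearly a fixed cut on the ratio of such probes, and not noise measured for each. The number of arrays limits the precision. Of all named genes 14231 were detected, of which 95 were higher at 24 h by more than 2-fold and 260 were lower, so that 26.8% of the genes past 2-fold were higher. With each array scaled to its median instead, that share was 38.8%. All 10 chondrocyte markers examined were detected, Col2a1 with intensities of 499543 before loading and 474876 at 24 h.

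Of the 34 ligands, 16 were detected on both arrays, which is 47.1% against 68.9% of all named genes. A further 3 ligands, Ccl3, Ccl4 and Ccl8, were well above background before loading only, which is 8.82% against 2.5% of all named genes. No ligand was well above background at 24 h only, a pattern found in 1.13% of all named genes. The remaining 15 were well above background on neither array, with intensities from 3.46 to 13.9. Among the 16 detected ligands, 0 were more than 2-fold higher at 24 h (0.668% of all detected genes were) and 0 were more than 2-fold lower (1.83% of all detected genes were). A total of 8 ligands had a log2 ratio below 0 and 8 above 0, and 52.4% of all detected genes were below 0. The median log2 ratio was -0.01 over the 16 ligands and -0.01 over all detected genes. In bulk RNA of this kind, fewer cells of a type and less RNA per cell cannot be told apart.

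The log2 ratios of the 16 detected ligands ran from -0.80 for Cxcl10 to 0.86 for Cxcl5. For 5 of them, or 31.2%, the log2 ratio lay more than 2 within-array errors from 0, against 17% of all detected genes. These were Cxcl5 and Cxcl14, which were higher at 24 h, and Cxcl10, Ccl7 and Ccl2, which were lower. Ccl7 passed this limit narrowly, at 2.07 errors. Ccl2 is among them because its error, averaged over 10 spots, was smaller than that of the ligands with 1 spot. The other 11 lay within 2 errors of 0, and 8 of these within 1 error.

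**Figure D1:**
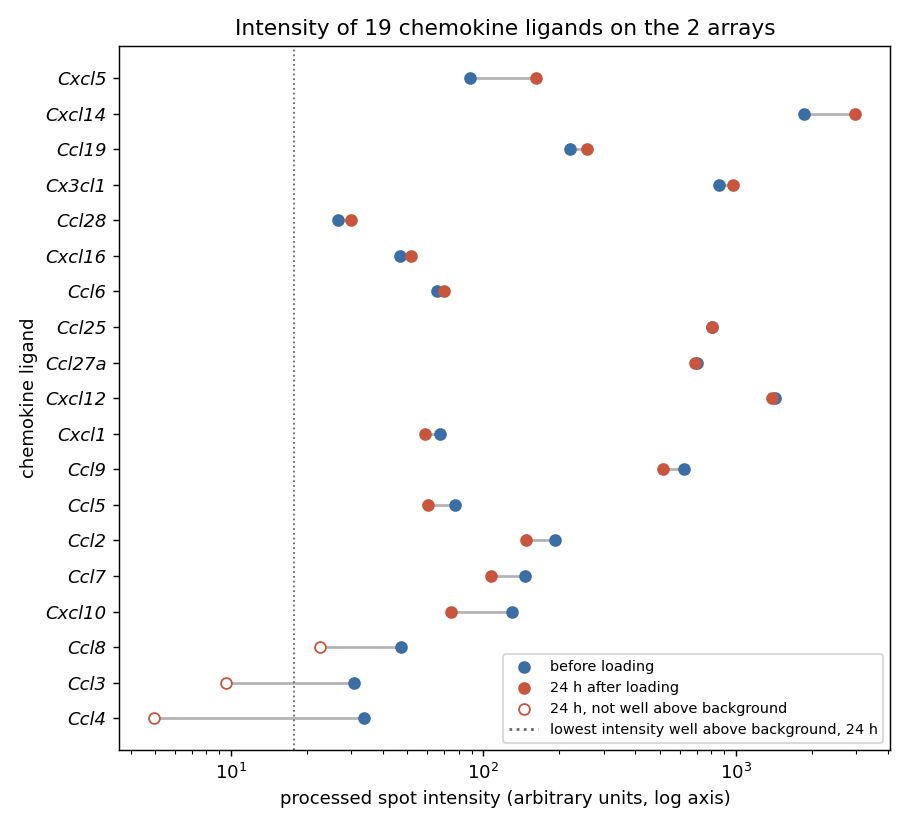
Spot intensity (arbitrary units, log axis) of the 19 chemokine ligands well above background on at least 1 array, with 1 point for the array before loading and 1 for the array 24 h after it. Open points were not well above background, and the dotted line is the lowest intensity well above background at 24 h (17.8). The points of Cxcl5 (88.7 and 162) and Cxcl14 (1861 and 2980) lie apart with 24 h on the right, those of Cxcl10 (130 and 74.7) with 24 h on the left, and Ccl3, Ccl4 and Ccl8 have an open point at 24 h.

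The 5 CXC ligands with an ELR motif bind CXCR2 or attract neutrophils, and 2 of them, Cxcl5 and Cxcl1, were detected. Cxcl5, the mouse neutrophil attractant also called LIX, had intensities of 88.7 before loading and 162 at 24 h. It was 1.82-fold higher at 24 h, and the log2 ratio was 0.86 (within-array error 0.22), where 1 within-array error above this value reaches past 2-fold. Cxcl1, also called KC, had intensities of 67.1 before loading and 58.8 at 24 h, a log2 ratio of -0.19 with an error of 0.24. The detected members of this group thus lay on either side of 0, and the Cxcl1 value was within 1 error of it. Cxcl2, Cxcl3 and the lung-associated Cxcl15 were well above background on neither array. In the order of protein-coding genes of the RefSeq table, Cxcl3, Cxcl15, Cxcl1 and Cxcl2 form an uninterrupted run of 4 genes, of which Cxcl1 was detected.

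Cxcl14 is a CXC ligand without the ELR motif that many healthy epithelia make constitutively. Its intensity was 1861 before loading and 2980 at 24 h, which is 1.60-fold higher, and the log2 ratio was 0.68 with an error of 0.20. Cxcl10 is an interferon-induced ligand of CXCR3, the receptor of activated T and NK cells. Its intensity was 130 before loading and 74.7 at 24 h, which is 1.74-fold lower, and the log2 ratio was -0.80 with an error of 0.23. As for Cxcl5, 1 error beyond this value reaches past 2-fold. The other measured CXCR3 ligand, Cxcl9, was well above background on neither array with either of its probes. Because these CXC ligands had opposite signs, and Ccl8 and Ccl3 were well above background before loading only, the 250 bases upstream of the start of these 4 genes are given as RefSeq has them in assembly GRCm38.p6. They lie at chr13:56296552-56296801 on the minus strand for Cxcl14, chr5:92348890-92349139 on the minus strand for Cxcl10, chr11:82114935-82115184 on the plus strand for Ccl8 and chr11:83649379-83649628 on the minus strand for Ccl3. Each is printed 5′ to 3′ in the direction of the gene, and capitals mark the matches to the 4 motifs described after them.
Cxcl14: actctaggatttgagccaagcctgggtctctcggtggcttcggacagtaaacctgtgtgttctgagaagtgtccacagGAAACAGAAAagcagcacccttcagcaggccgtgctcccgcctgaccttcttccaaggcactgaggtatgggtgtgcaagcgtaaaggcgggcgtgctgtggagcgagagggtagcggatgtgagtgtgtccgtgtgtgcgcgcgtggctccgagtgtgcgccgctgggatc
Cxcl10: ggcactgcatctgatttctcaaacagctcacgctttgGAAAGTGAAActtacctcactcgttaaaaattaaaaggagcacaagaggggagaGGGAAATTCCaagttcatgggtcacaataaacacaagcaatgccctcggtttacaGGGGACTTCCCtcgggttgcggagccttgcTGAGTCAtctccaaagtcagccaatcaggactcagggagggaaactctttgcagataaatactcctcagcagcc
Ccl8: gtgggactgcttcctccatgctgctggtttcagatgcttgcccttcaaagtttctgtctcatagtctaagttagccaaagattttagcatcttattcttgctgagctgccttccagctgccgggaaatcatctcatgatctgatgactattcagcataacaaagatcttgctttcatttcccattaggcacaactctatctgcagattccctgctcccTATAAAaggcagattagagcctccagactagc
Ccl3: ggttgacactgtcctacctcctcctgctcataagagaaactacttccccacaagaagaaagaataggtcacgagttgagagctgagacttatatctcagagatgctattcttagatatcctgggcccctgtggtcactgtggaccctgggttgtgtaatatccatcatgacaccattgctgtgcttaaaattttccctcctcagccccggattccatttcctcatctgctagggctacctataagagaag

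The motifs searched on both strands were an NF-κB-like GGGNNNNNCC, an interferon response element-like GAAANNGAAA, an AP-1-like TGANTCA and the TATA box letters TATAAA, where N is any base. The Cxcl14 sequence holds 1 match, GAAANNGAAA, beginning 172 bases before the start. The Cxcl10 sequence holds GAAANNGAAA at 213 bases, GGGNNNNNCC at 159, 104 and 103 bases, of which the last 2 overlap each other, and TGANTCA at 74 bases. Ccl8 has TATAAA at 32 bases and Ccl3 has no match. GAAANNGAAA is thus shared by the ligand that was higher and the one that was lower. Windows of this length were given for 28 of the 44 ligand genes, 34 windows in all, and those of Cxcl5, Ccl2 and Ccl7 were not among them. GAAANNGAAA was in 3 of the 34 ligand windows (8.82%) and in 2.98% of all 32851 windows, in Ccl19 beside Cxcl14 and Cxcl10. GGGNNNNNCC was in 47.1% of ligand windows and 45.8% of all, TGANTCA in 11.8% and 6.75%, and TATAAA in 29.4% and 12.4%. A match describes the letters of the window, and whether any factor binds there was not measured.

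The other CXC ligands hold Cxcl12, Cxcl16, Cxcl13 and Cxcl17 beside Cxcl14. Cxcl12 is the ligand of CXCR4 and of the scavenging receptor ACKR3, and holds CXCR4-bearing cells in place in bone marrow. Its brightest probe had intensities of 1434 before loading and 1394 at 24 h, a log2 ratio of -0.04 with an error of 0.20. Its second probe, designed on another transcript of the gene, had 392 and 498, a log2 ratio of 0.35 with an error of 0.20. The probes thus had opposite signs, and the sign of the brightest probe also turned under scaling to the median or to the spike-in controls. Cxcl16, which is made as a membrane protein and binds CXCR6, had intensities of 46.6 and 51.8, a log2 ratio of 0.15 with an error of 0.28, which turned to -0.03 with normexp. The B cell attractant Cxcl13 and the mucosal Cxcl17 were well above background on neither array.

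**Figure D2:**
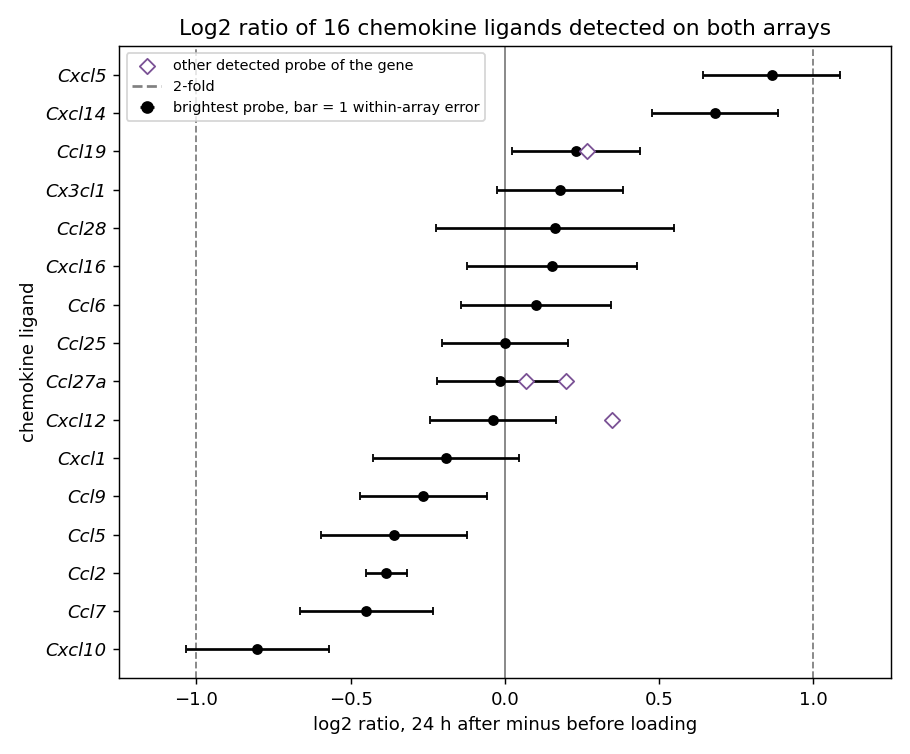
Log2 ratio, 24 h after minus before loading, of the 16 ligands detected on both arrays. Filled points are the brightest probe with a bar of 1 within-array error on each side, open diamonds are further detected probes of the same gene, and dashed lines mark 2-fold. The points run from -0.80 (Cxcl10) to 0.86 (Cxcl5), none lies past a dashed line, and the second Cxcl12 probe (0.35) lies away from the first (-0.04).

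Among the CC ligands that attract monocytes and eosinophils, 2 of 7 were detected on both arrays, and both were lower at 24 h under each scaling run. Ccl2, also called MCP-1, recruits monocytes through CCR2 and is spotted 10 times on each array. The 10 spots had intensities from 159 to 217 before loading, with a median of 191, and from 126 to 185 at 24 h, with a median of 146. All 10 spots were lower at 24 h than the same spots before loading, although 2 spots at 24 h lay above the lowest spot before, so that the groups of spots overlap. Averaged, Ccl2 went from 193 to 148, 1.30-fold lower, with a log2 ratio of -0.38, an error of 0.07 and an SD between spots of 0.17. The spots of an array hold the same RNA and are not replicate samples. Ccl7, or MCP-3, another ligand of CCR2, had intensities of 146 before loading and 107 at 24 h. That is 1.36-fold lower, a log2 ratio of -0.45 with an error of 0.22.

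**Figure D3:**
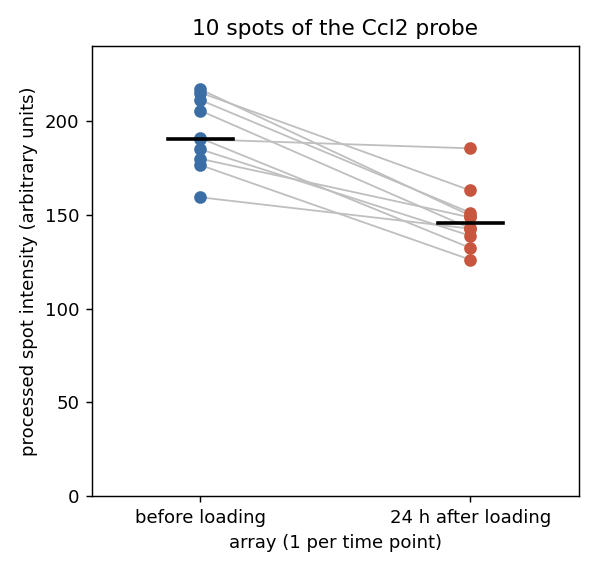
Intensity (arbitrary units) of the 10 spots of the Ccl2 probe on the array before loading and on the array 24 h after it, with lines joining the same spot and a bar at each median (191 and 146). All 10 lines fall, while 2 spots at 24 h lie above the lowest spot before loading.

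Ccl8, or MCP-2, which in mouse acts on CCR8, had intensities of 47.2 before loading and 22.6 at 24 h, where it was not well above background. It was 2.09-fold lower at 24 h by what is called here the floored fold. For the array where a probe was not well above background, this takes the lowest intensity that was (17.8 at 24 h). Where the intensity of the probe itself was higher, as it was for Ccl8, that was taken. A floored fold is no lower limit of the difference, since probes above the floor, such as Ccl8, were also not well above background. The Ccl8 difference did not hold under another background correction: with normexp on the median spot signal the log2 ratio was 0.00, against -1.06 as measured and -0.98 to -0.96 under 4 other scalings. The CCR3 ligands Ccl11, Ccl24 and Ccl26 and the CCR2 ligand Ccl12 were well above background on neither array. Ccl2, Ccl7, Ccl11, Ccl12, Ccl8 and Ccl1 follow each other in the gene order as a run of 6, of which the 3 members with a signal were lower at 24 h and the other 3 were well above background on neither array. One of the 3, Ccl8, was at 0.00 with normexp, and 52.4% of all detected genes were lower.

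Of 8 CC ligands that act on myeloid cells and T cells, 3 were detected on both arrays. Ccl5, or RANTES, a ligand of CCR1 and CCR3 that T cells and stimulated mesenchymal cells make, had intensities of 77.5 before loading and 60.4 at 24 h. The log2 ratio was -0.36 with an error of 0.24, and -0.09 with normexp. Ccl9, a mouse ligand of CCR1 that osteoclasts and macrophages make, had intensities of 621 and 517, a log2 ratio of -0.26 with an error of 0.20. Ccl6, another CCR1 ligand of the mouse, had 65.3 and 69.9, a log2 ratio of 0.10 with an error of 0.24. All 3 thus lay within 2 errors of 0, with Ccl5 and Ccl9 below it.

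Ccl3 and Ccl4, the macrophage inflammatory proteins also called MIP-1α and MIP-1β, were well above background before loading only. Ccl3 had intensities of 30.6 before loading and 9.60 at 24 h, 1.72-fold lower by the floored fold. Ccl4 had 33.7 before loading and 4.97 at 24 h, 1.89-fold lower by the floored fold. With normexp their log2 ratios were -0.35 and -0.54, nearer 0 than the log2 values of the floored folds (-0.78 and -0.92). Ccl17 and Ccl22, which bind CCR4, and Ccl20, which binds CCR6, gave no signal well above background. Ccl5, Ccl9, Ccl6, Ccl3 and Ccl4 form a run of 5 neighbouring genes in which 4 had lower intensities at 24 h and Ccl6 did not. Of the 4, Ccl5 and Ccl9 lay within 2 errors of 0, and Ccl3 and Ccl4 were not well above background at 24 h. Among all detected genes 52.4% were lower, and whether the neighbours differ together was not tested.

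The homing CC ligands guide lymphocytes and dendritic cells to lymphoid organs, gut and skin, and 4 of the 5 with a probe were detected. Ccl19, which binds CCR7, had intensities of 221 before loading and 258 at 24 h, a log2 ratio of 0.23 with an error of 0.21. A second Ccl19 probe had 92.8 and 112, a log2 ratio of 0.27, and the remaining Ccl19 probe was well above background on neither array. Ccl25, the CCR9 ligand of thymus and gut, measured 808 on each array, a log2 ratio of 0.00 with an error of 0.20. Its second probe was well above background at 24 h only, with 20.4 and 24.7. The Ccl25 transcript of the brightest probe thus did not differ between the arrays beyond the within-array error.

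Ccl27a, a CCR10 ligand known from skin, had intensities of 700 and 692, a log2 ratio of -0.02 with an error of 0.20. Its other probes had 614 and 643, a log2 ratio of 0.07, and 380 and 436, a log2 ratio of 0.20. The 3 probes lay on both sides of 0, each within 1 error of it, and the sign of the brightest turned under scaling to the median or to the spike-in controls and with normexp. Whether they also bind the transcripts of Ccl27b was not tested. Ccl28, a mucosal ligand of CCR10 and CCR3, had 26.6 and 29.8, a log2 ratio of 0.16 with an error of 0.39, which turned to -0.01 with normexp. Cx3cl1, or fractalkine, is an adhesive membrane-bound ligand of CX3CR1 that ADAM10 and ADAM17 shed. It had intensities of 860 and 973, a log2 ratio of 0.18 with an error of 0.20. The CCR8 ligand Ccl1 and the XCR1 ligand Xcl1 were well above background on neither array.

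The ligands past 2 within-array errors kept their sign under each of 7 other ways of processing. All of these but the mean over probes are drawn in the plot of log2 ratios by processing. Several of them could not turn a sign. The deposited table holds the same intensities, and each of these ligands has 1 probe, which the mean over probes leaves unchanged. Median and spike-in scaling raise all log2 ratios by 0.10 and 0.08, less than the size of any of these ratios. The log2 ratio of Cxcl5 lay between 0.62 and 0.96, that of Cxcl14 between 0.68 and 0.78, that of Cxcl10 between -0.80 and -0.57, that of Ccl7 between -0.45 and -0.31 and that of Ccl2 between -0.38 and -0.26. None of these values passed 2-fold. Ccl7, at 2.07 errors with the main scaling and an error of 0.22, did not stay past 2 errors throughout. Its values with loess (-0.41), quantile (-0.40), spike-in (-0.36) and median scaling (-0.35) and with normexp (-0.31) lay within 2 such errors of 0. The count of ligands past 2 errors was made with the main scaling only.

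**Figure D4:**
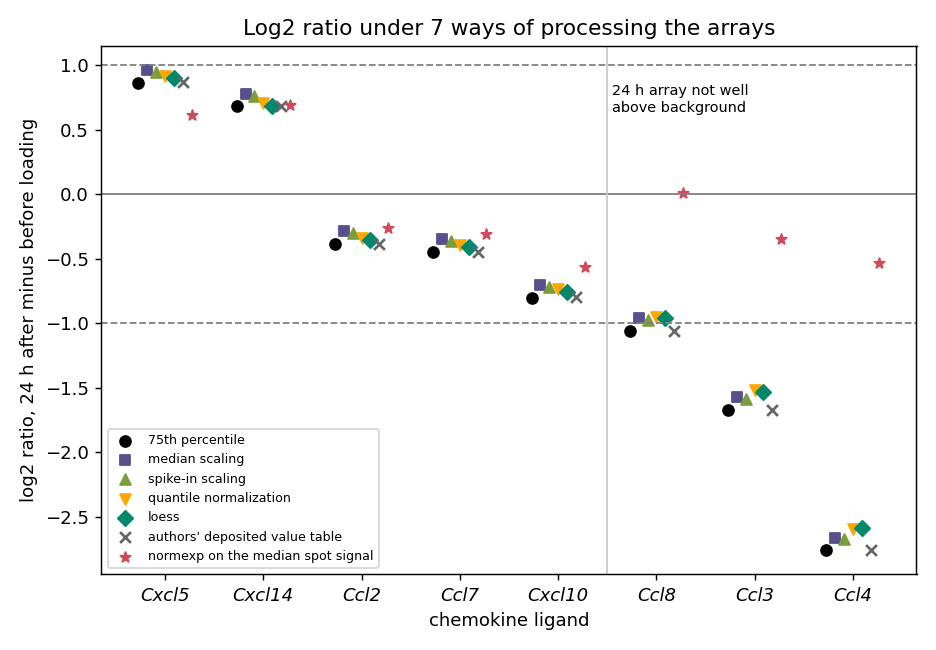
Log2 ratio, 24 h after minus before loading, of 5 ligands detected on both arrays (left) and 3 that were not well above background at 24 h (right), with 1 symbol for each of 7 ways of processing the arrays. The 7 include the main scaling and leave out the mean over probes. Solid and dashed lines mark 0 and 2-fold. The left symbols of a ligand stay on 1 side of 0 and within 2-fold, while normexp moves Ccl8 to 0.00, Ccl3 to -0.35 and Ccl4 to -0.54.

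Pf4, a chemokine of platelets and macrophages whose symbol falls outside the naming used here, was lower at 24 h by more than any detected ligand. Its intensity was 418 before loading and 188 at 24 h, 2.23-fold lower, with a log2 ratio of -1.16 and an error of 0.21. The related Ppbp was well above background on neither array.

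Chemokine receptors carry the signal into the responding cell, and 3 of 18 were detected on both arrays, against 68.9% of all named genes. Ccr8, the receptor of Ccl1 and in mouse of Ccl8, had intensities of 213 before loading and 104 at 24 h, 2.05-fold lower. Its log2 ratio was -1.04 with an error of 0.22, so that it was within 1 error of the 2-fold threshold, and its second probe was well above background on neither array. It did not pass 2-fold with median, quantile or spike-in scaling, with normexp or as the mean over its probes. Ccr3, bound by Ccl5 and Ccl7 among others, had 28.3 and 31.6, a log2 ratio of 0.16 with an error of 0.37. Cxcr6, the receptor of Cxcl16, had 44.2 and 56.7, a log2 ratio of 0.36 with an error of 0.28, while its second probe had -0.27. Cxcr4, the receptor of Cxcl12, was well above background before loading only, with 33.0 and 4.28, 1.85-fold lower at 24 h by the floored fold. The other 14 receptors were well above background on neither array. Ccr2, the receptor of Ccl2 and Ccl7, and Cxcr2, the receptor of Cxcl5, were among them.

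Atypical receptors bind chemokines without the usual signal and take them up. Ackr3, which binds Cxcl12, had intensities of 957 before loading and 623 at 24 h, a log2 ratio of -0.62 with an error of 0.20. Ccrl2 had 30.4 and 27.8, a log2 ratio of -0.13 with an error of 0.39. Ackr2, a scavenger of inflammatory CC ligands, was well above background before loading only, with 34.3 and 15.9, 1.93-fold lower by the floored fold. Ackr1 and Ackr4 were well above background on neither array. None of the receptors of either kind was more than 2-fold higher, against 0.668% of all detected genes. With 3 receptors and 2 atypical receptors detected on both arrays, this says little about them.

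Proteases cut chemokines or shed them from the membrane, and proteoglycans present them on the cell surface. Of 13 such genes 9 were detected on both arrays, against 68.9% of all named genes. Of the 9, 0 passed 2-fold in either direction, while 0.668% of all detected genes were more than 2-fold higher and 1.83% lower. The median log2 ratio was 0.12 against -0.01 over all detected genes. The gelatinase Mmp2, which trims Cxcl12 and Ccl7, had intensities of 3048 and 3300, a log2 ratio of 0.12. The sheddase Adam10 had 2112 and 2033, a log2 ratio of -0.05, and the heparan sulfate proteoglycan Sdc4 had 2101 and 1775, a log2 ratio of -0.24. Among genes named after their values were seen, Mmp14 had a log2 ratio of 0.58, Sdc1 of 0.51 and the collagenase Mmp13 of 0.49, each with an error of 0.20. The neutrophil collagenase Mmp8 was well above background before loading only (floored fold 1.54, lower) and the macrophage elastase Mmp12 at 24 h only (floored fold 1.84, higher). The brightest Cd44 probe had a log2 ratio of -0.07, while a second Cd44 probe had -1.05. Dpp4, Mmp9 and the second probes of Mmp12 and Ackr2 were well above background on neither array.

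Of 16 cytokines that induce chemokines, 3 were detected on both arrays, against 68.9% of all named genes. None of the 3 passed 2-fold, while 0.668% of all detected genes were more than 2-fold higher and 1.83% lower. Mif, a cytokine that most cells store, had intensities of 103886 and 81480, a log2 ratio of -0.35 with an error of 0.20. Il18 had 1810 and 2012, a log2 ratio of 0.15, and the macrophage growth factor Csf1 had 4531 and 4949, a log2 ratio of 0.13 with an error of 0.06 over 10 spots. Its other probes, designed on another transcript, pointed the other way, with 2171 and 1415, a log2 ratio of -0.62, and 1798 and 1180, a log2 ratio of -0.61. Osm and Il33 were well above background before loading only. The classical inducers Il1a, Il1b, Tnf, Il6, Il17a, Ifng and Ifnb1, and also Lif, Tslp, Csf2 and Csf3, were well above background on neither array.

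The genes listed here as NF-κB feedback targets were all detected, 15 of 15, against 68.9% of all named genes. Of them 0 passed 2-fold, while 0.668% of all detected genes were more than 2-fold higher and 1.83% lower. With shares this small, 0 of 15 says little about the list. The list holds inhibitors and subunits of the pathway and other genes such as Ptgs2, Icam1 and Sod2. Whether NF-κB induces each of them in these cells was not tested. Their median log2 ratio was -0.01, and the values ran from -0.87 for Ptgs2, the inducible cyclooxygenase, to 0.52 for the adhesion molecule Icam1. Sod2, the mitochondrial superoxide dismutase, had intensities of 27511 and 27955, a log2 ratio of 0.02. Tnip1, an inhibitor of the pathway, had a log2 ratio of -0.23 and the inhibitor Nfkbia, or IκBα, one of 0.15. As with the ligands, the values lay on both sides of 0.

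**Figure D5:**
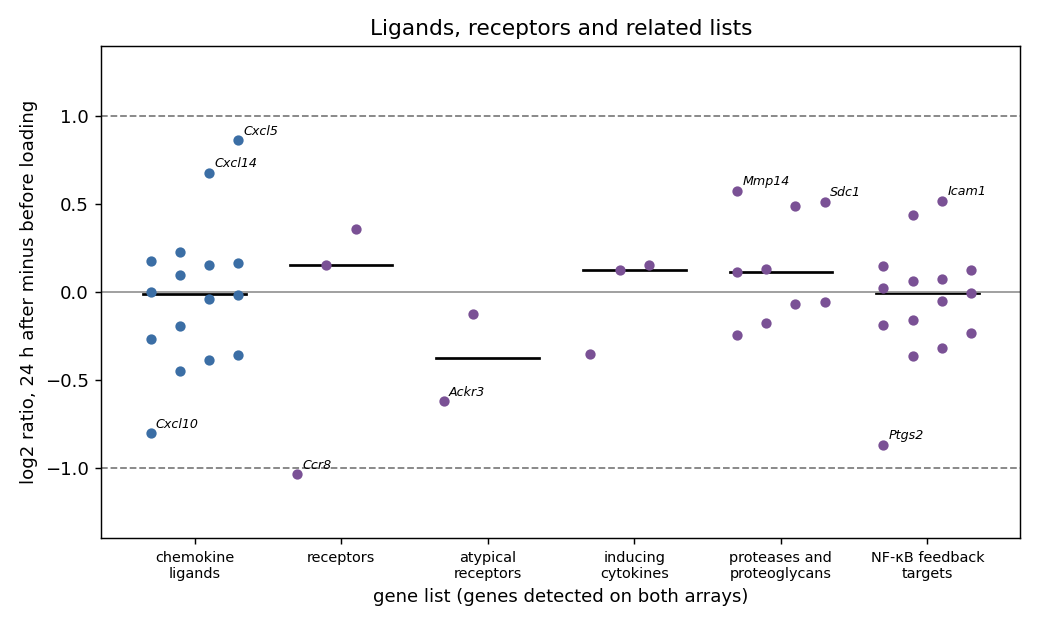
Log2 ratio, 24 h after minus before loading, of the detected chemokine ligands, receptors, atypical receptors, inducing cytokines, proteases and proteoglycans, and NF-κB feedback targets, with 1 point a gene, a bar at the median of the list and dashed lines at 2-fold. The 16 ligands spread around their median of -0.01 from -0.80 to 0.86, and among these lists the 1 point past a dashed line is the receptor Ccr8 (-1.04). Pf4 and the cell type markers are not drawn.

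Macrophages and other blood cells make several of these ligands, so their markers were read beside them. Of 14 macrophage markers with a probe, 12 were detected on both arrays, with a median log2 ratio of -0.02. Their summed intensity was 30343 before loading and 29443 at 24 h, and 4847 and 4684 over the 13 markers other than Itgam. The brightest Itgam probe held most of the sum with 25496 and 24759, while its other probes had 70.4 and 54.9, and 49.0 and 44.2, and whether it is specific was not tested. Without Itgam, 1 Csf1r probe held most of the sum with 3646 and 3288. The other Csf1r probes had 845 and 967, and 33.0 and 39.9, and whether the brightest is specific was not tested. Ptprc, or CD45, which marks all leukocytes, had 20.9 and 46.1, a log2 ratio of 1.14 with an error of 0.35. Its intensity before loading lay near the lowest that was well above background there (17.3). Ptprc was the 1 detected macrophage marker past 2-fold, and the log2 ratios of the others went down to -0.42 for C1qa. Aif1 was well above background on neither array. Signals of macrophage markers were thus measurable at both times, but both sums rest mainly on single probes.

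Of 9 neutrophil markers 3 were detected, with a summed intensity of 81603 before and 76846 at 24 h. Csf3r (74407 and 70050) and Elane (7012 and 5987) made up nearly all of this sum, and whether their probes are specific was not tested. Camp, a granule peptide, was the highest of them in ratio, with a log2 ratio of 2.54 from its brightest probe and 0.28 from the other, while S100a9, Mpo, Retnlg, Ngp and Ltf were well above background on neither array. Of 8 T and NK cell markers 4 were detected, with sums of 8557 and 8664, and Cd3d, Cd3g and Klrb1c were well above background on neither array. The brightest Cd4 probe held 5509 and 5288 of these sums, while its second probe had 31.3 and 34.2. Of 8 endothelial markers 4 were detected, with sums of 14608 and 13961, and Cdh5, Tek, Tie1 and Emcn were well above background on neither array. One Kdr probe held 12774 and 12375 of these sums, while the other Kdr probe was well above background on neither array. These sums may therefore not measure RNA of the cells they are named for, since the specificity of the Cd4 and Kdr probes was not tested. All 8 fibroblast and synovial markers were detected, with sums of 206558 and 209034, and Dpt among them had a log2 ratio of 2.10. Of 6 muscle markers 3 were detected, with sums of 1832 and 1511. The part of these cells in the values of the ligands was not tested.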

How the data were processed

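Primary chondrocytes were measured on 2 one-colour SurePrint G3 mouse arrays, 1 before and 1 24 h after loading. The authors deposited the spot intensity as Agilent Feature Extraction 10.10.1.1 (version from the submitters' processing notes) gave it, background-subtracted and not normalized between arrays, with its error and flags. A deposited value table holds the same intensities within 0.497% over 59305 spots. Of these spots, 59.14% before loading and 57.66% at 24 h were well above background, and 0 were saturated.

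Outlier spots were dropped (141 before loading and 138 at 24 h), the spots of a probe were averaged, and each array was scaled on the log2 scale to its 75th percentile over 55678 probes. Transcript accessions were matched without version to a RefSeq table of GRCm38, which named 27235 probes. The 2-fold threshold is that of the study, and all counts are descriptions without p-values. Errors of the spots of 1 probe were combined as independent. Detected probes of the same gene differed in log2 ratio by a median of 0.19 over 3635 genes, and the median within-array error of all detected genes was 0.20. Named were all ligands, and of the other lists the genes past 2-fold, the detected receptors and the 3 brightest genes, with some others chosen after their values were seen. The ligands, lists and the count past 2 errors were chosen with earlier results of these data known. No ligand spot lay within 100 µm of 3 or more spots past 2-fold in its own direction. Alternatives were median, quantile, loess and spike-in scaling (240 spots), normexp with offset 50, the deposited table, the mean over probes, other detection rules and an allowance of 2 errors. Python 3.11.15, numpy 2.4.6, pandas 2.3.3, R 4.3.3 and limma 3.58.1 were used. The 2-fold calls were tested on simulated data with changes larger than 2-fold in genes detected on both arrays. Smaller changes, genes detected on 1 array and the limit of 2 errors were not simulated.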

Additional observations from a re-analysis of the deposited data

How the results depend on the processing

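No paired analysis was possible because each time point has a single array. Under 7 alternatives, 106 of 112 log2 ratios of the detected ligands moved by less than 1 within-array error, 11 ligands kept their sign and 5 (Ccl25, Ccl27a, Ccl28, Cxcl12 and Cxcl16) turned it in at least 1. The 6 that moved by more were Ccl2 with median scaling (-0.29), spike-in scaling (-0.30) and normexp (-0.26), and Ccl5 (-0.09), Cxcl10 (-0.57) and Cxcl5 (0.62) with normexp. Several alternatives could move few values, so the count of 106 is no measure of robustness. The deposited table holds the same intensities, and the mean over probes leaves ligands with 1 probe unchanged. Median and spike-in scaling shift all ligands alike, by less than the error of each ligand with 1 spot. Under these alternatives the median over the 16 ligands ran from -0.02 to 0.12, and it was -0.04 over the 19 ligands detected on at least 1 array. Median scaling raised the median of all genes by 0.10 and spike-in scaling by 0.08, and the ligands are given relative to the 75th percentile.

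The count of ligands more than 2-fold lower was 0 in each setting except detection on at least 1 array, where it was 3 of 19 ligands. These were Ccl3, Ccl4 and Ccl8, counted from 24 h values not well above background. The floored folds of Ccl3 and Ccl4 were 1.72 and 1.89, below 2-fold. By the same rule 507 of all genes were lower, among 14231 detected on both arrays, 517 before loading only and 234 at 24 h only. The count of ligands more than 2-fold higher was 0 in each setting run. Of the receptors, proteases, cytokines and feedback targets, 1 was more than 2-fold lower, and 0 were with median, quantile or spike-in scaling, normexp or the mean over probes, while 4 were with detection on at least 1 array. These were Ccr8, Cxcr4, Ackr2 and Mmp8, and all but Ccr8 were not well above background at 24 h. Over all genes, 95 higher and 260 lower became 38 and 118 with normexp, 192 and 507 when 1 array sufficed for detection, and 25 and 99 where the 2-fold threshold had to be passed by more than 2 errors. Detection on at least 1 array counts a larger number of genes, and the 25 and 99 come from a stricter limit, which can only lower the counts. Normexp added an offset of 50 to each spot, and the part of this in its lower counts was not tested. The cause of the other shifts was not tested. Normexp was run on the median spot signal, and normexp on the mean signal was not run because the files used here hold the median. Signal over background limits Ccl3, Ccl4, Ccl8 and Ccl28, which lie near the lowest intensity well above background (17.3 before and 17.8 at 24 h).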
